A study of Mus musculus with 4 samples.

Results

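The mRNA levels described here are those of 3T3-L1 cells on day 2 of adipocyte differentiation in the vehicle control, read from a single array of DMSO-treated cells. 3T3-L1 is a mouse line of preadipocytes that accumulates lipid and takes on the properties of fat cells after hormonal induction. The cells had been grown to confluence and induced on day 0 with 10 μg/mL insulin, 1 μM dexamethasone and 0.5 μM IBMX in medium with 10% fetal calf serum. This initiation medium was replaced on day 3, so it was still on the cells at harvest. All 4 conditions of the study received it, and the other 3 added 100 μg/mL bilberry extracts, 100 nM delphinidin or 100 nM cyanidin in place of 0.1% DMSO alone. Agilent Whole Mouse Genome arrays were used, 1 for each condition, and no culture without induction is part of the series. Of the 19742 named genes with a value on at least 1 of the 4 arrays, 19529 had a value on the DMSO array, and these are the genes described. The labels call the cells adipocytes and give 6 days of treatment, although RNA was taken on day 2, and they do not say whether the conditions came from separate cultures.

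Adipogenesis in this line runs as a cascade. The inducers first raise the transcription factors C/ebpβ and C/ebpδ, the growth-arrested cells then pass through rounds of division known as clonal expansion, and Pparγ and C/ebpα follow and switch on the genes of lipid storage. Day 2 falls within this early period, when preadipocyte, cell cycle and adipocyte genes can be read side by side.

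A level here is the log2 of the processed signal, a background-subtracted intensity, over the 75th percentile of the array's 43379 non-control spots, which was 861 intensity units. A level of 0 is therefore that percentile. A gene was represented by its brightest probe, and it was called on, or detected, when any of its probes was well above background by the scanner software's own test. The 19529 genes ran from -8.37 to 9.66, with a median of -2.15, a 75th percentile of 1.47 and a 99th percentile of 6.60. Of them 12970 were on, which was 66.4%, and 6559 were off, a word used here for not well above background rather than for absence. Of 153 negative control spots 6 (3.92%) passed the same test. Counts of list members that were on are to be read against the 66.4% of all genes, and counts in the top 25% against 25%. The highest level of a probe that was not well above background was -5.74 and the lowest of one that was well above background was -6.05, so the passage between the classes lay in this narrow range. The lowest values, near -8.3, are substitutes that the software gives to spots at or below background, and have no order among themselves.

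With 1 array there was no replicate and no test, and every value below is a description of this array. Replicate spots of 245 probes differed by a median SD of 0.06, which covers the array alone. Different probes of the same gene differed far more: for 5608 genes with more than 1 probe well above background the median range was 2.80 log2 units, and the range was over 1 in 81.0% of them. A difference of a few units between genes is thus within what probes of a single gene show, and levels of different genes are given below as levels of their probes, with the rank among the 19529 genes. Calls could also be set beside those of the other arrays. Of 19217 genes with a value on all 4 arrays, 11993 (62.4%) were well above background on all of them. Levels on the other arrays are over their own 75th percentiles, 576 intensity units for bilberry, 1009 for delphinidin and 1016 for cyanidin. Rps18, the brightest gene, read 9.66 with DMSO, 10.00 under bilberry, 9.39 under delphinidin and 9.35 under cyanidin. All of the 20 brightest genes with a value there likewise read higher under bilberry and lower under delphinidin and cyanidin. No level below is corrected for a shared offset between arrays.

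**Figure D1:**
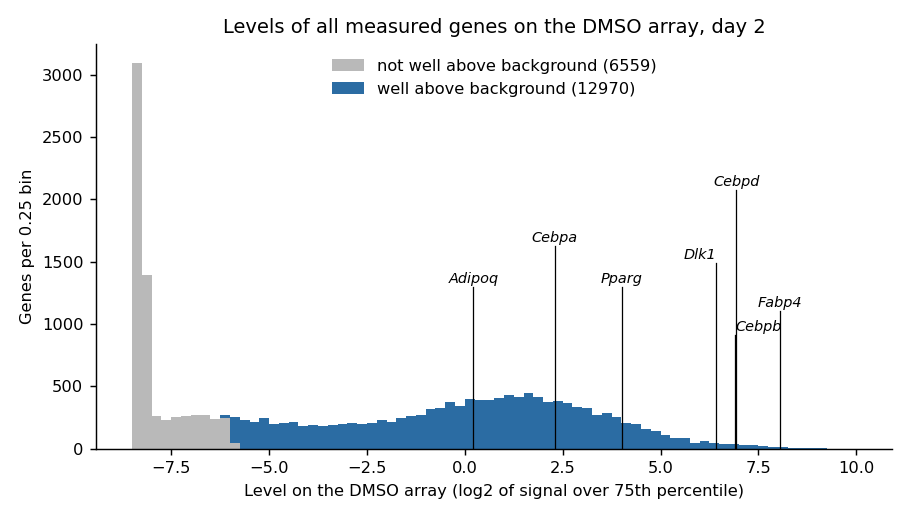
Histogram of the DMSO array's level of all 19529 genes (log2 of signal over the 75th percentile, bins of 0.25), with genes well above background in blue and the rest in grey. The 6559 genes that were not well above background pile up near the lower end, and vertical lines place Adipoq at 0.22, Cebpa at 2.29, Pparg at 4.00, Dlk1 at 6.42, Cebpb at 6.91, Cebpd at 6.94 and Fabp4 at 8.05.

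All 6 marker genes of the differentiation program were on, and they spanned early and late stages. Cebpb and Cebpd, which encode the C/ebp factors that open the cascade, ranked 150 and 148. The level of Cebpb was 6.91 on the DMSO array, 7.45 under bilberry, 6.85 under delphinidin and 6.61 under cyanidin, and its other probe read 4.38 on the DMSO array. Cebpd was at 6.94 on the DMSO array, 7.24 under bilberry, 6.71 under delphinidin and 6.68 under cyanidin. Both genes were bright on every array, and the DMSO array lay inside the range of the others, as it did for Rps18. The Cebpb probe lies at chr2:167381552-167381610 and the Cebpd probe at chr16:15801944-15802003 on mm8, the build of the files.

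Pparg, the nuclear receptor that commits the cells to the fat lineage, stood at rank 1346. Its single probe, at chr6:115455814-115455873 on mm8, read 4.00 on the DMSO array, 4.16 under bilberry, 4.31 under delphinidin and 4.31 under cyanidin. The DMSO value was the lowest of the 4. Cebpa, its partner in terminal differentiation, read 2.29 with DMSO, 2.80 under bilberry, 2.49 under delphinidin and 2.61 under cyanidin, again lowest with DMSO, and its other probe was at -0.37. Klf5, an early activator of Pparg, was at 1.96 with DMSO and at 2.69, 2.44 and 2.35 on the bilberry, delphinidin and cyanidin arrays. The second probe of Klf5 read only -4.97, so the gene's rank rests on the choice of probe.

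Fabp4, the fatty acid carrier of fat cells, was already among the brightest genes of the array, at rank 47. Of its 3 probes, the brightest read 8.05 with DMSO, 7.10 under bilberry, 7.85 under delphinidin and 8.01 under cyanidin, and the others read 7.97 and 3.03 with DMSO. The DMSO array was the highest of the 4 for both brighter probes, while the dimmest read 3.14 under cyanidin. Adipoq, which encodes the secreted hormone adiponectin, was on, with 0.22 with DMSO, -0.86 under bilberry, 0.03 under delphinidin and 0.45 under cyanidin. It stood at the 64.6th percentile of genes. Dlk1, the preadipocyte protein Pref-1 that holds back differentiation, ranked 222, at 6.42 on the DMSO array and 6.18 on the cyanidin array, and that probe had no value on the remaining arrays. Its other probe read 5.08, 5.39, 5.17 and 4.82 on the DMSO, bilberry, delphinidin and cyanidin arrays. A preadipocyte marker and an adipocyte marker thus stood side by side, at the 98.9th and the 99.8th percentile of genes.

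**Figure D2:**
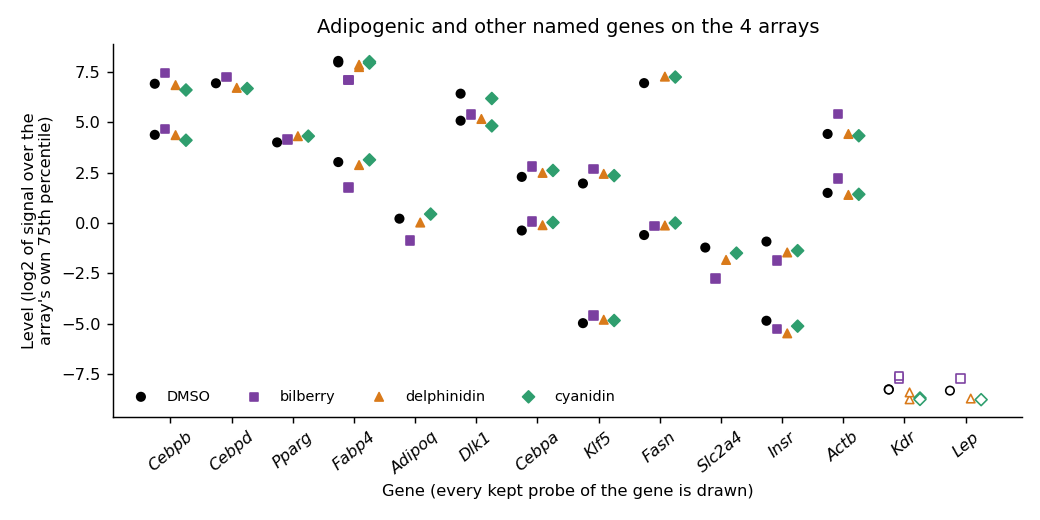
Level (log2 of signal over each array's own 75th percentile) of every kept probe of 14 named genes on the DMSO, bilberry, delphinidin and cyanidin arrays; filled symbols are well above background and open symbols are not. Arrays of a probe lie apart for Slc2a4, from -2.75 to -1.22, and for Adipoq, from -0.86 to 0.45, probes of the same gene lie far apart for Fabp4, Klf5 and Fasn, and Kdr and Lep are at the floor on all 4 arrays.

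Early adipogenic regulators were all on: 20 of 20 measured genes were detected and 14 were in the top 25%, where all genes give 66.4% and 25%. Beside the C/ebp genes the brightest was Nfia, a factor that acts before Pparg, at 3.79. The list's median level was 2.01 and its lowest member lay at -3.62. Of the terminal regulators 9 of 10 were on and 4 were in the top 25%, with a median of -0.39, or 0.28 with marked spots kept, which adds Srebf1. Rxra, which encodes the partner receptor of Pparγ, was the brightest at 5.63, ahead of Pparg and of Esrra, a receptor of mitochondrial programs, at 2.82. Ppara, the receptor of fatty acid oxidation in liver, was off on every array. Mlxipl, which encodes the carbohydrate sensor ChREBP, was counted as on at -5.94, close to the limit, and on the DMSO array alone. Srebf1, the source of the lipogenic factor Srebp1c, had no usable value, because the software had marked its spots. With marked spots kept it read 5.26.

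Genes that keep preadipocytes from differentiating were also on, in 29 of 30 cases, with 11 in the top 25% and a median of 0.72, or 0.03 with the median over the probes of a gene. After Dlk1 the brightest were Irf3, an interferon regulatory factor, at 3.70 and Nr2f2, an orphan receptor also called COUP-TFII, at 3.67. Wnt10b, the Wnt ligand best known for blocking adipogenesis, was the exception, at -7.62, and was not detected on the other arrays either.

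Mature adipocyte genes were detected in 41 of 45 cases (91.1%, where all genes give 66.4%). Of them 21 were in the top 25% and 4 in the top 1%, and the median of the list was 1.09. After Fabp4 the brightest were Cav1, which encodes the coat protein of caveolae, at 7.76 and Agt, the precursor of angiotensin, at 7.13. Fasn, the fatty acid synthase, read 6.95 with DMSO, 7.27 under delphinidin and 7.25 under cyanidin, and its other probe only -0.59. Slc2a4, the insulin-responsive glucose transporter Glut4, was on at a modest level, with -1.22 with DMSO against -2.75 under bilberry, -1.83 under delphinidin and -1.49 under cyanidin. The members that were off were Lep, which encodes leptin, at -8.32, Adrb3, the fat cell β-adrenergic receptor, at -8.20, Aqp7, the glycerol channel, at -8.36, and Adig, adipogenin, at -8.37. None of these 4 was well above background on any of the 4 arrays. Scd1, a fatty acid desaturase, had a marked spot only, at 4.14.

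Of 11 brown adipocyte markers 5 were detected, against 66.4% of all genes, and 0 were in the top 25%. Ucp1, the uncoupling protein that defines brown fat, was at -8.28 and Prdm16, its regulator, at -8.30. Cox8b, Zic1, Otop1 and Lhx8 were not detected either. Cox7a1, a muscle and brown fat subunit of cytochrome oxidase, was the brightest at -0.63, followed by Ppargc1a at -1.79 and Dio2, a thyroid hormone deiodinase, at -2.90.

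**Figure D3:**
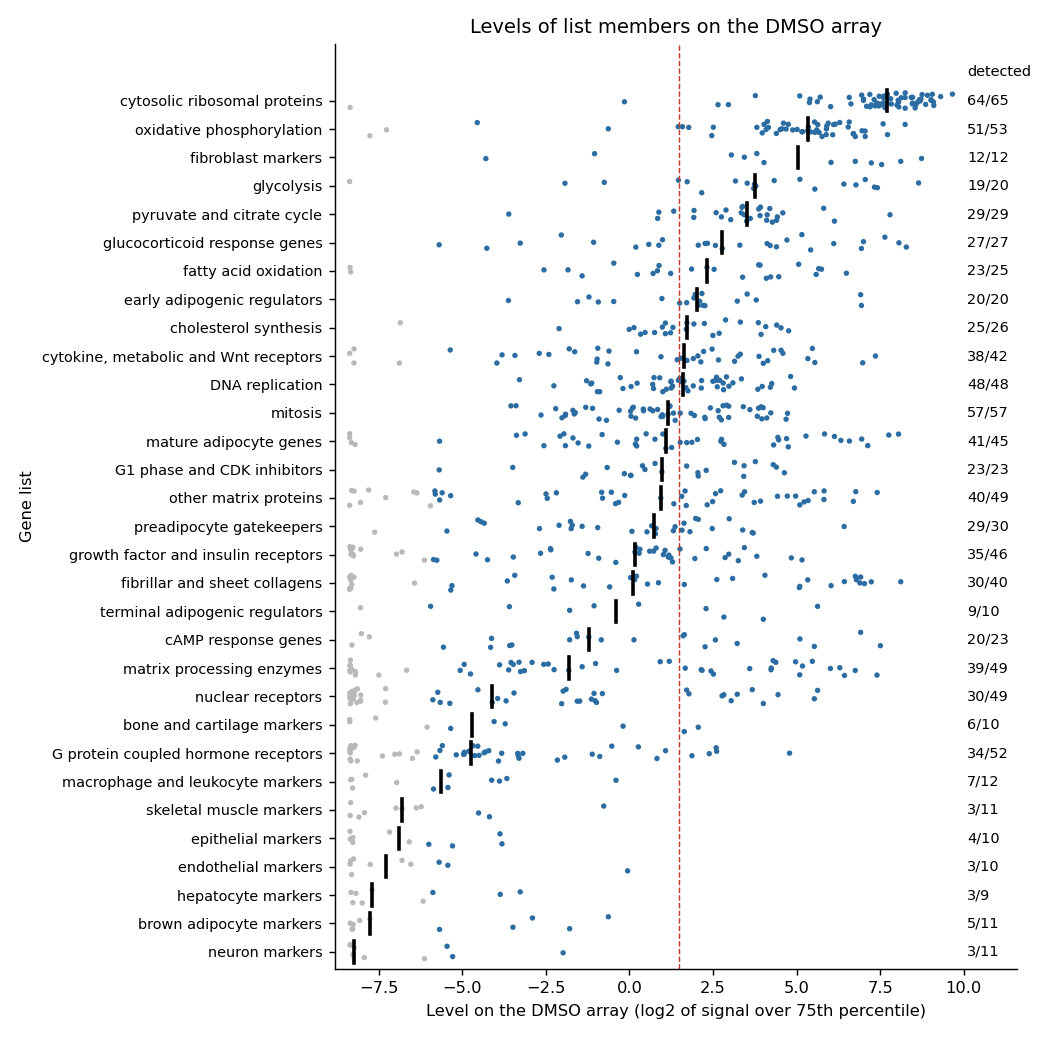
DMSO levels of the members of 31 gene lists (log2 of signal over the 75th percentile), in order of the list median (black bar), with members well above background in blue and others in grey; figures at the right give detected over measured members and the dashed line is the 75th percentile of genes, 1.47. Ribosomal and respiratory chain genes lie furthest right, all 48 replication and all 57 mitosis genes are blue, and the lists of other cell types lie to the left.

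Promoters of genes at both ends of this order were set beside one another. RefSeq windows on GRCm38.p6, from 250 bases before to 50 bases after the annotated start, matched 15418 of the 19529 genes by symbol. The 150 bases before the start are printed below, 5′ to 3′, for factors that were on (Cebpb, Cebpa, Pparg), for bright preadipocyte, lipid and fibroblast genes (Dlk1, Fasn, Col1a2, S100a4), for the dimmer Adipoq, and for Lep and Ucp1, which were off. Capitals mark each CG dinucleotide and each TATAAA, the core of the TATA box, on either strand; no CG overlaps a TATAAA.
Cebpb, chr2:167688765-167688914, plus strand: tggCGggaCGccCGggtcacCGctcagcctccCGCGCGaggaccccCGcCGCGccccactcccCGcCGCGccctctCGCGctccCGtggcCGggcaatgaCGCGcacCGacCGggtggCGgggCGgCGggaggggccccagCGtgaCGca
Fasn, chr11:120824548-120824697, minus strand: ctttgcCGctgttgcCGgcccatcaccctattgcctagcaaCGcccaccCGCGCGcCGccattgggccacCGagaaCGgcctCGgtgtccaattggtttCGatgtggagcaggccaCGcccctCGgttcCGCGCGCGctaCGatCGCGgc
Pparg, upstream window, chr6:115360994-115361143, plus strand: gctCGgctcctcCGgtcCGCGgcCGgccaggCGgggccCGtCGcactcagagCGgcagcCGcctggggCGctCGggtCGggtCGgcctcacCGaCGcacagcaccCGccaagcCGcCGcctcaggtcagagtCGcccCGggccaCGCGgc
Pparg, downstream window, chr6:115421916-115422065, plus strand: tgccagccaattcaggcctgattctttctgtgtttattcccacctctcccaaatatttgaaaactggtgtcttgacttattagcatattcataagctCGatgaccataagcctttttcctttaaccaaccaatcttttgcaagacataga
Cebpa, chr7:35119143-35119292, plus strand: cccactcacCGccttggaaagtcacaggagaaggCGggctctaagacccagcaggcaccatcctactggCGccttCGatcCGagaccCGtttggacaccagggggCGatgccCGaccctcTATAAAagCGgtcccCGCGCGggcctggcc
Dlk1, chr12:109452673-109452822, plus strand: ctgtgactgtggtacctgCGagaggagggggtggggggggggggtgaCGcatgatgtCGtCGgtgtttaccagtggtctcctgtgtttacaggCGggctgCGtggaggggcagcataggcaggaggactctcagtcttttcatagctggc
Adipoq, chr16:23146386-23146535, plus strand: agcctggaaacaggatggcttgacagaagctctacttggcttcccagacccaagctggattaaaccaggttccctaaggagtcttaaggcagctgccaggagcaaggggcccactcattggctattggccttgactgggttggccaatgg
Col1a2, chr6:4505468-4505617, plus strand: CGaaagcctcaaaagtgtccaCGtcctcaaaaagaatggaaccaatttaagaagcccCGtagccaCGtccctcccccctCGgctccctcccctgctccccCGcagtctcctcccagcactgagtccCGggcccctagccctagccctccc
S100a4, chr3:90603620-90603769, plus strand: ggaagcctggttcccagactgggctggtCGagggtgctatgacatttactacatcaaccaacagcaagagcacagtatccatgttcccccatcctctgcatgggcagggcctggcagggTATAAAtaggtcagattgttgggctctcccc
Lep, chr6:29060071-29060220, plus strand: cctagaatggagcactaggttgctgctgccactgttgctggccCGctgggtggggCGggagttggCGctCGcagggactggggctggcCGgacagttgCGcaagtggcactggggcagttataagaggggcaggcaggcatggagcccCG
Ucp1, chr8:83290198-83290347, plus strand: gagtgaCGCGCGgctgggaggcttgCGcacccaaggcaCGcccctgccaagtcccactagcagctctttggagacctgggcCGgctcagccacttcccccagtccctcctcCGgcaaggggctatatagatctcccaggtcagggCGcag

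The CpG ratio, the number of CG dinucleotides over that expected from the window's C and G, was 1.03 for Cebpb, 1.09 for Fasn and 0.85 for Cebpa. Pparg has 3 windows. The ratio was 0.91 in the upstream one, 0.47 in the middle one, which is not shown and holds TATAAA on the opposite strand, and 0.17 in the downstream one, at the start of the fat-specific Pparγ2 transcript, and the array's probe does not say from which start the mRNA came. Among bright genes Dlk1 had 0.43, Col1a2 0.47 and S100a4 0.09, while Adipoq had 0.00, with 0 CG in its 300 bases. The genes Lep and Ucp1, which were off, had 0.59 and 0.48. Single genes thus did not sort by this ratio.

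Across all genes with a window the ratio and detection went together. Of 2589 genes with a ratio under 0.2 in their richest window, 28.1% were on, of 2146 genes from 0.2 to 0.4 40.8%, and of 1973 from 0.4 to 0.6 61.7%. From 0.6 to 0.8 the share was 80.3% of 3384 genes, from 0.8 to 1 it was 88.3% of 3729, and at 1 or more it was 92.2% of 1597. Taken in classes, 42.1% of 6708 genes under 0.6 and 85.9% of 8710 genes at or over 0.6 were detected. The median ratio was 0.29 for genes that were off and 0.73 for genes on below the top 25%. It was 0.82 in the top 1% and 0.83 in the rest of the top 25%. This is a description across genes of a single array, and genes are not independent replicates.

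TATAAA on either strand was found in the windows of 20.9% of genes that were off, 10.5% of those on below the top 25%, 8.26% in the rest of the top 25% and 17.2% of 151 genes in the top 1%, of which 43 are ribosomal protein genes, against 13.5% of all 15418 genes. Counted only on the transcribed orientation with its first base 40 to 20 bases before the start, where TATA boxes lie, the shares were 4.96%, 1.92%, 1.46% and 5.96%, the last being 9 genes, against 2.85% of the 15418 genes. By both counts the motif was least frequent in the rest of the top 25%. Of the sequences shown, Cebpa and S100a4 carry it at that position.

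**Figure D4:**
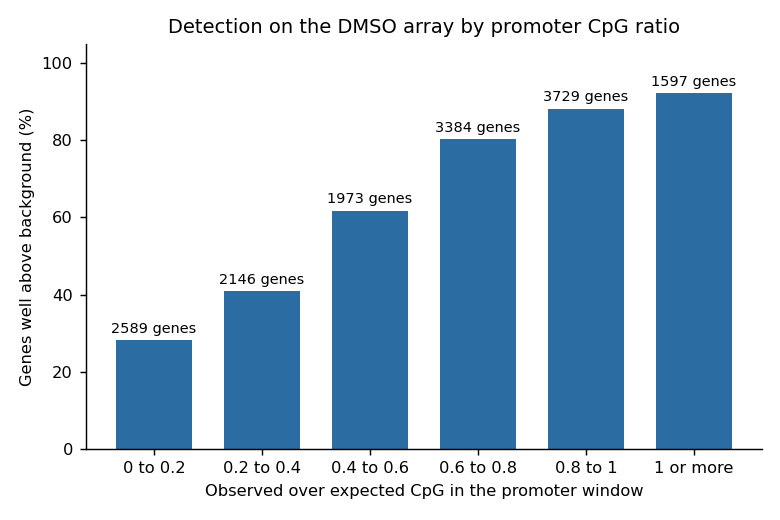
Percentage of genes well above background on the DMSO array (bars, from 0) by the observed over expected CpG ratio of the promoter window, with the number of genes above each bar. The share climbs at each step, from 28.1% under 0.2 to 92.2% at 1 or more.

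Of all genes with a window 56.5% had a ratio of 0.6 or more. Among the lists this held for 44 of 47 mitosis genes, 36 of 40 respiratory chain genes, 23 of 43 nuclear receptors, 11 of 30 mature adipocyte genes, 11 of 32 collagen genes and 0 of 7 fibroblast markers, and no difference between lists was tested. Within these lists most genes were on in either class. Mature adipocyte genes were on in 16 of 19 cases with a lower ratio and in 11 of 11 with a higher one, and collagen genes in 17 of 21 and 8 of 11.

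By the main rule genes of cell division were on without exception, which was so for all 23 genes of G1 phase and its inhibitors, all 48 of DNA replication and all 57 of mitosis. The top 25% held 11, 26 and 24 of them, and the medians were 0.97, 1.60 and 1.16. With the median over the probes of a gene these medians were 0.02, 1.48 and -0.31, so that of mitosis changed sign. None of the 3 lists had a member in the top 1%. When all probes of a gene had to pass, 20, 43 and 46 of their members were on, against 10785 of all 19529 genes. With all 4 arrays required the counts were 21, 48 and 55, against 11993 genes. In G1, the D-type cyclins Ccnd2 and Ccnd3 led at 4.63 and 4.39, and Cdkn2b, an inhibitor of the cyclin D kinases, followed at 4.30. Cdkn1c, the inhibitor p57, was the dimmest at -5.69.

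Among replication genes Mcm6, a subunit of the DNA helicase, was the brightest. Its level was 4.94 with DMSO, 6.14 under bilberry, 5.98 under delphinidin and 5.53 under cyanidin. Pcna, the sliding clamp of the polymerases, read 4.82, 5.91, 5.95 and 5.52 on the same arrays, and Rfc2, a subunit of the clamp loader, read 4.25, 5.20, 4.79 and 4.50. In all 3 genes the DMSO array was the lowest of the 4. The brightest mitosis genes were Zwint, a kinetochore protein, at 4.73, Smc4, a condensin subunit, at 4.69 and Incenp, a partner of Aurora B, at 4.23. Zwint read 5.11, 5.10 and 4.93 and Incenp 4.38, 4.96 and 4.62 on the bilberry, delphinidin and cyanidin arrays, again with DMSO lowest, although another probe of Zwint read 2.12 with DMSO and 1.72 under bilberry. Smc4 read 1.89, 4.87 and 4.55.

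Matrix genes included some of the brightest mRNAs. Of 40 collagen genes 30 were on (75%, where all genes give 66.4%), 16 were in the top 25% and 7 in the top 1%. Col1a2, a chain of collagen I, read 8.11 with DMSO, 8.65 under bilberry, 8.23 under delphinidin and 8.09 under cyanidin, although its second probe was at -4.62. Col3a1, the chain of collagen III, was at 7.23 and Col4a2, a basement membrane chain, at 7.03. The 10 collagen genes that were off were Col8a2, Col9a1, Col10a1, Col13a1, Col14a1, Col19a1, Col22a1, Col24a1, Col28a1 and Col4a3, at -6.42 or below. Of these Col22a1 was detected on the cyanidin array, and the others on no array.

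Other matrix proteins were detected in 40 of 49 cases (81.6%), with a median of 0.94, or -0.40 with the median over the probes of a gene. Fbln2, or fibulin 2, led at 7.41, before Fn1, which encodes fibronectin, at 6.77 and Efemp2, needed for elastic fibers, at 6.70. Fn1 was brightest on the DMSO array, with 6.24, 6.09 and 6.41 on the bilberry, delphinidin and cyanidin arrays. Not detected were the laminin chains Lama1, Lama3, Lamb3 and Lamc3, the elastic fiber genes Efemp1, Fbln5 and Fbn2, and Thbs4 and Ccn3. Lama3, Lamc3, Thbs4 and Efemp1 were well above background on at least 1 other array.

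Of 49 enzymes, chaperones and inhibitors that process the matrix, 39 were on (79.6%) and 19 were in the top 25%. Pcolce, an enhancer of procollagen cleavage, was at 7.40, Serpinh1, the collagen chaperone Hsp47, at 6.75 and Mmp2, a gelatinase, at 6.43. Everything that was off in this list was a matrix metalloproteinase: Mmp7, Mmp8, Mmp10, Mmp12, Mmp13, Mmp15, Mmp16, Mmp20, Mmp21 and Mmp25, from -6.66 down to -8.36. Mmp13 was well above background on the delphinidin array, at -5.03.

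Of 49 nuclear receptors 30 were on (61.2%) and 11 were in the top 25%, shares close to those of all genes. Rxra at 5.63 and Nr4a1, an immediate early receptor also called Nur77, at 5.53 were the brightest, followed by Nr2f6 at 4.44. Nr4a1 read 5.54, 5.39 and 5.18 on the bilberry, delphinidin and cyanidin arrays. The sex steroid receptors Esr1, Esr2 and Pgr were off on all arrays, as were Rarb, Thrb, Rxrg, Rorb, Nr0b1, Hnf4g, Esrrb, Nr1h5, Nr1i2, Nr2e1, Nr2e3, Nr4a3 and Nr5a2. Ppara was off too, and Nr5a1 was detected on the delphinidin and cyanidin arrays only.

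Growth factor and insulin receptors were on in 35 of 46 cases (76.1%), with 10 in the top 25% (21.7%), near the 66.4% and 25% of all genes. Igf2r, which clears Igf2 and sorts lysosomal enzymes, read 5.16, Tgfbr2, a TGF-β receptor, 4.84, and Pdgfra, a PDGF receptor of mesenchymal cells, 3.81. Insr, the insulin receptor, was detected by both of its probes and stood at the 56.2nd percentile of genes. The brighter read -0.92 with DMSO, -1.86 under bilberry, -1.46 under delphinidin and -1.37 under cyanidin, and the other -4.85, -5.27, -5.47 and -5.12. DMSO was the highest array for both, and the brighter probe was tied to Insr through an older name of the locus. Kdr, the VEGF receptor 2, was off in both of its probes on all arrays, and so were Flt4, Tek, Tie1, Kit, Ret, Ntrk2 and Bmpr1b. Ntrk3 and Erbb3 were off with DMSO and well above background on at least 1 other array.

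Of cytokine, metabolic and Wnt receptors 38 of 42 were on and 22 were in the top 25%. Adipor2, a receptor of adiponectin, was at 7.36, Il11ra1, the interleukin 11 receptor, at 6.98 and Lrp1, an endocytic receptor, at 5.54. Lepr, the leptin receptor, was off in both probes on all arrays, as were the Frizzled receptors Fzd6 and Fzd9, and Fzd10 was off with DMSO and under bilberry. With Lep also off, neither leptin nor its receptor was detected.

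G protein coupled hormone receptors had the lowest median of the 4 receptor lists, -4.74, or -5.84 with the median over the probes of a gene and -3.33 after normexp background correction. Of 52 genes 34 were on (65.4%), close to the 66.4% of all genes, and 5 were in the top 25%. When all probes of a gene had to pass, 22 of the 52 were on, against 10785 of all 19529 genes. The brightest probes were those of Ednra, an endothelin receptor, at 4.79, S1pr3, a sphingosine phosphate receptor, at 2.61 and F2r, the thrombin receptor, at 2.59. The 18 that were off included the fatty acid and metabolite receptors Ffar2, Ffar4 and Hcar1, the incretin and glucagon receptors Gipr, Glp1r and Gcgr, the prostanoid receptors Ptger2, Ptger3 and Ptgdr, and the angiotensin receptors Agtr1a and Agtr1b. Adrb3, Adra1b, Adra2c, Mc1r, Npy1r, Vipr2 and Htr2a complete them. Of the 18, Mc1r, Ffar2, Adra1b and Adra2c were well above background on at least 1 other array.

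Genes of the respiratory chain had the second highest median of the 31 lists, after those of the ribosome. Of 53 genes of oxidative phosphorylation 51 were on and 48 in the top 25%, with a median of 5.35, at the 97.4th percentile of genes, or 4.75 with the median over the probes of a gene. Cox6a1, a subunit of cytochrome oxidase, was at 8.24, Uqcrh, of complex III, at 7.72 and Atp5g3, of the ATP synthase, at 7.58. The members that were off, Cox4i2 at -7.26 and Cox8b at -7.76, are tissue-restricted forms of subunits.

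The citrate cycle and pyruvate genes were all detected, 29 of 29, and 25 were in the top 25%. Mdh2, the mitochondrial malate dehydrogenase, led at 7.79, followed by Pcx, the pyruvate carboxylase that feeds lipogenesis, at 6.13. In glycolysis 19 of 20 genes were on and 16 in the top 25%. Aldoa, an aldolase, read 8.65 with DMSO, 9.34 under bilberry and 8.44 under delphinidin, and Gapdh and Pgk1 were at 7.41 and 7.33. Aldoc, the brain aldolase, was off at -8.36 with DMSO and detected on the delphinidin and cyanidin arrays.

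Fatty acid oxidation had 23 of 25 genes on, 14 in the top 25% and a median of 2.32, or 0.94 with the median over the probes of a gene. Etfb, an electron carrier, was at 6.49, and Acadm and Acadvl, which open the oxidation of fatty acids, were at 5.74 and 5.66, while Ucp3 and Ehhadh were off on all arrays. Cholesterol synthesis had 25 of 26 on and 14 in the top 25%. Ebp, a sterol isomerase, was at 4.76, Hmgcs1, an early enzyme of the pathway, at 4.53 and Srebf2, its transcription factor, at 4.40.

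Genes known to answer the inducers could be read as well. All 27 glucocorticoid response genes were on, 18 in the top 25% and 5 in the top 1%. Mt2, a metallothionein, was at 8.28, Angptl4, an inhibitor of lipoprotein lipase, at 8.06 and Ddit4, an inhibitor of mTOR signaling, at 7.64. On the bilberry, delphinidin and cyanidin arrays Mt2 read 8.42, 7.88 and 8.14 and Angptl4 8.42, 7.85 and 8.14. For both genes the DMSO array lay inside the range of the others, as it did for Rps18. Since every culture was induced, what the glucocorticoid response genes would read without dexamethasone is not measured here.

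Of cAMP response genes 20 of 23 were on and 9 in the top 25%, with a median of -1.22, or -2.17 with the median over the probes of a gene. Rgs2, a regulator of G protein signaling, was the brightest, with 7.50 on the DMSO array and 6.93, 6.83 and 7.05 on the bilberry, delphinidin and cyanidin arrays. Cebpb and Nr4a1, named above, came next. The phosphodiesterase Pde7b, the growth factor gene Areg and Nr4a3 were off on all arrays.

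The 20 brightest genes were mainly those of the ribosome. Of the 20, 14 encode ribosomal proteins, among them Rps18, Rpl7a, Rps16, Rps14, Rplp2, Rplp1, Rps23, Rpl41, Rps20, Rpl23a, Rpl12, Rplp0 and Rps27, which read between 8.69 and 9.66. Of 65 measured genes of cytosolic ribosomal proteins 64 were on, 63 were in the top 25% and 53 in the top 1%. Rps2 was the exception at -8.35, from its only probe left on the DMSO array. Its bright probe had been marked by the software there and read 9.14 with marked spots kept, and the gene was well above background on the 3 other arrays. Rpl5, Rpl8, Rpl30, Rpl32 and Rpl39 had no value for the same reason, and read 8.72, 8.66, 6.13, 8.49 and 7.37 with marked spots kept.

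Other bright genes were Lars2, a mitochondrial leucyl-tRNA synthetase, at 9.55, Ptprz1, a receptor phosphatase, at 9.49, Grn, which encodes progranulin, at 9.13, S100a4, a calcium-binding protein of fibroblasts, at 8.73 and Slc35e3, a member of the solute carrier genes, at 8.72. The single probe of Lars2 and the bright probe of Ptprz1 were saturated. The other 3 probes of Ptprz1 read -3.06, -8.26 and -8.36, and only the first of these was also well above background, so the rank of Ptprz1 rests on 1 probe of 4. Grn was bright in both probes, at 9.13 and 4.94. S100a4 had no usable value on the other 3 arrays. Actb, the reference gene of the study's real-time RT-PCR, read 4.42 with a probe that the files place on chromosome X and 1.50 with a probe at chr5:143168706-143168765 on mm8.

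Cell type markers were read against the label of the cells. All 12 fibroblast markers were on and 10 were in the top 25%, with S100a4, Col1a2 and Vim, which encodes vimentin, at 8.73, 8.11 and 7.54. Of 12 macrophage and leukocyte markers 7 were detected (58.3%, where all genes give 66.4%), between -5.86 and -0.40. Cd14, a receptor for bacterial lipopolysaccharide, was the brightest. Ptprc, Itgam and Adgre1, which define these cells, were off, as were Cd8a and Cd79a. Of 10 endothelial markers 3 were detected, Egfl7 at -0.05, Esam at -5.43 and Vwf at -5.69, and Pecam1, Cdh5, Tek, Tie1, Cldn5, Emcn and Kdr were not. Of 11 skeletal muscle markers 3 were on, Tnnt3 at -0.77, Des at -4.18 and Acta1 at -4.51. Myod1, Myog, Myf5, Myf6, Pax7, Ckm, Myh1 and Myh4 were not. The weaker test of the software passed 6 of 10 endothelial and 9 of 11 skeletal muscle markers, and 15262 of all 19529 genes. A threshold at the 95th percentile of negative controls passed 5 endothelial and 7 skeletal muscle markers, and 14208 genes.

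Markers of bone and cartilage were detected in 6 of 10 cases, near the 66.4% of all genes, as were macrophage markers. By this rule the counts do not set either list apart. When all probes of a gene had to pass, the counts were 3 of 10 and 4 of 12, against 10785 of all 19529 genes. By the main rule 4 of 10 epithelial, 3 of 11 neuronal and 3 of 9 liver markers were detected. The neuronal count was 5 with the weaker test of the software and 1 with all 4 arrays required. Sox9 at 2.06 and Col2a1 at 1.64, genes of cartilage, were the only members of these 4 lists in the top 25%, and Runx2, the bone regulator, was at -0.19. Bglap, Dmp1, Col10a1 and Ibsp were not detected. Epcam, Cdh1, Krt18, Cldn4, Esrp1 and Grhl2 were not detected among epithelial genes, whose brightest were Krt14 at -3.81 and Cldn3 at -3.87. Tubb3, a tubulin, led the neuronal genes at -1.98, Snap25 and Syp were on at -5.29 and -5.45, and Rbfox3, Syt1, Nefl, Nefm, Stmn2, Map2, Gad1 and Slc17a7 were off. Alb, Apoa1, Apoa2, Ttr, Ahsg and Cyp7a1 were off among liver genes, and Tat, which glucocorticoids induce in liver, was on at -3.27, as were Fgb at -3.86 and Hnf4a at -5.88. Of these off members, counted over the lists of endothelium, muscle, bone and cartilage, epithelium, neurons and liver, 1, 2, 1, 1, 2 and 1 were well above background on at least 1 other array. Against the label adipocyte, the adipocyte genes Fabp4 and Adipoq were on and Lep was off, while the preadipocyte gene Dlk1 was on.

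Calls that only the DMSO array made were few and uneven across its surface. Of 39373 probes with a value on all 4 arrays 23352 were well above background on the DMSO array, and 23054 of these were so on at least 1 other array. The remaining 298 probes had a median level of -5.54, near the limit, but 126 of them were more than 2 log2 units above every other array. The 6 brightest with a gene name were Otud1 at -1.14, Hpse at -1.16, Lrp2 at -1.21, Kl at -1.42, Actl6b at -1.43 and Wnt3a at -1.49, against -7.10 or lower for all 6 on the 3 other arrays. These genes, picked after their values were seen, are known for ubiquitin removal, heparan sulfate cleavage, endocytosis, Fgf23 signaling, chromatin remodeling in neurons and Wnt signaling, and a second probe of Otud1, Lrp2, Kl and Actl6b read -8.36, -8.36, -8.34 and -6.98 on the DMSO array itself. Rows 200 to 400 of the array held 198 of the 298 probes (66.4%) and 38.6% of all probes compared. The same rows held 69.9% of the 229 probes called on the bilberry array alone, 60.6% of 591 on the delphinidin array and 47.8% of 500 on the cyanidin array. Among list members Mlxipl, Nr1i3 and Ncr1 were on with DMSO alone, at -5.94, -5.37 and -5.43. The part of the array's surface in these calls was not tested.

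**Figure D5:**
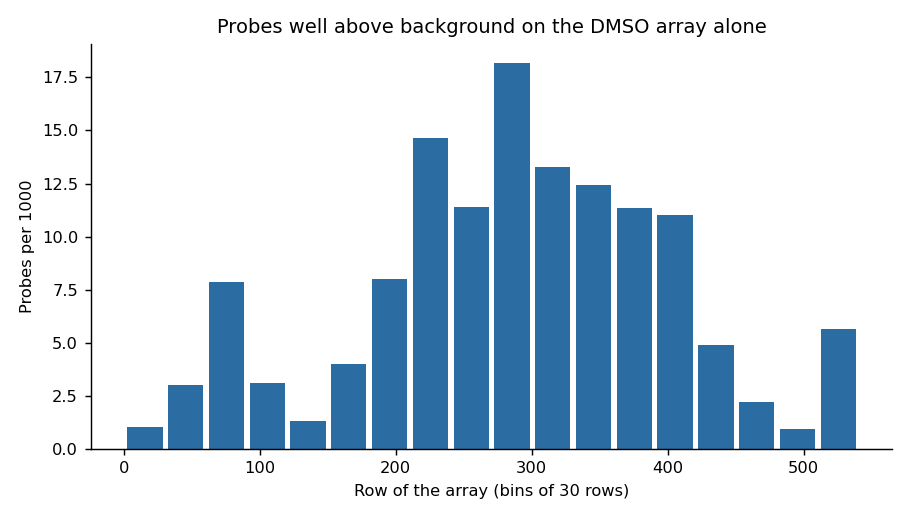
Probes well above background on the DMSO array and on none of the other 3, per 1000 probes with a value on all 4 arrays, by the row of the array in bins of 30. Bars start at 0 and are tallest in the middle rows, where 198 of the 298 probes lie.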

How the data were processed

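RNA of 3T3-L1 cells on day 2 was labeled with Cy3 and hybridized to 1 Agilent array per condition. The authors deposited Agilent Feature Extraction files, whose processed signal is an intensity after subtraction of the local background, with flags per spot for detection, saturation and outliers. A table for all 4 arrays, also deposited, repeats these intensity values, and its largest relative difference over 45018 spots was 0. The authors' division by a 75th percentile, taken over all measurements, is not in the deposited values. Here the 75th percentile of non-control spots was used instead. Taking it over all spots raised every list median by 0.04.

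Control spots and the 875 spots marked as outliers on the DMSO array, 740 of them for their local background, were left out, spots of a probe were averaged on the log2 scale, and 40475 probes remained. Of these 23937 were named through RefSeq accessions of GRCm38.p6, 6192 through current symbols, 2386 through older symbols, and 7960 were not named. Promoter windows are those of RefSeq on GRCm38.p6, and probe positions are those of the files, on mm8, for which no exon annotation was used here. Genes were named by rule: the 6 markers, the 20 brightest, the 3 brightest members and the members off in each list, and the genes the study names. The members and lists were chosen with earlier results of these data known. Not analysed here are Pck1, Irs2, Hspg2, Ptger1, Ffar3, Zbtb16, Crtc1 and Serpina1a, and a few other genes are not reported here. With 1 array a condition, that number limits precision, and no test was made. Alternatives were other rules of detection, of the probe that stands for a gene, of background, of scaling, of marked spots and of the CpG ratio. The calculations, with Python 3.11.15, pandas 2.3.3, numpy 2.4.6, R 4.3.3 and limma 3.58.1, were tested on simulated data.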

Additional observations from a re-analysis of the deposited data

Results flagged for a closer look

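Probes without a gene name enter no list or comparison above. On the DMSO array 2976 of these 7960 probes (37.4%) were well above background, against 6 of 153 negative control spots (3.92%), and 297 of them were at or above the level that opens the top 25% of genes. Of the 2976, 2878 were also well above background on at least 1 other array. What these probes detect was not tested.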

How the results depend on the processing

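The number of genes that were on, 12970, ranged from 10785 when all probes of a gene had to pass to 15262 with the weaker test of the software, and was 11993 when all 4 arrays had to pass. Of the list counts of detected members 207 of 217 recomputed values, and of the counts in the top 25% 123 of 124, stayed within 1.5 times. Levels were less stable: 96 of 186 recomputed list medians and 32 of 98 recomputed levels of single genes were counted as moved. When all probes of a gene had to pass, G protein coupled hormone receptors fell to 22, macrophage and leukocyte markers to 4 and bone and cartilage markers to 3. The weaker test gave 6 endothelial, 9 skeletal muscle, 5 neuron and 5 hepatocyte markers, and a threshold at the 95th percentile of negative controls gave 5 endothelial and 7 skeletal muscle markers. With all 4 arrays required 1 neuron marker was left. With the median over the probes of a gene 1 bone and cartilage marker was in the top 25%.

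The share of genes on with a CpG ratio under and at or over the dividing value, 42.1% and 85.9%, was 37.0% and 84.0% with the division at 0.5, 51.7% and 88.6% at 0.75, 61.2% and 91.6% with the weaker test, 52.3% and 89.1% with the negative controls, and 43.5% and 86.9% over protein-coding genes, an alternative chosen after seeing the data. Keeping spots marked for their local background, and requiring another array beside DMSO, were also chosen after seeing the data and gave 13113 and 12819 genes on.

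Against the SD of replicate spots, 0.06, normexp moved 22 of 31 list medians and keeping marked spots 7. A scale set by the median of well-detected probes adds 0.73 to every level by construction. With the median over the probes of a gene 29 of 31 list medians fell by more than that SD, with differences down to -2.72 and a median over the lists of -0.77, and 5 changed sign: collagens to -2.59, growth factor and insulin receptors to -2.54, cytokine, metabolic and Wnt receptors to -0.41, other matrix proteins to -0.40 and mitosis to -0.31. Normexp took collagens to -0.04, and terminal adipogenic regulators rose to 0.28 with marked spots kept and to 0.34 on the other scale.

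With the median over probes, Cebpb stood at 5.65, Fasn at 3.18, Cebpa at 0.96 and Klf5 at -1.50. The other scale put Pparg at 4.74. Normexp raised the floor, Lep to -3.95. Leaving out spots marked as outliers removed 221 genes, 68 of them in the top 25%. No paired analysis was possible because there was 1 array per condition, and no array could be left out. Signal over background limits the calls near -6, and the spread between probes limits every comparison of level between genes.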

Other observations

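Genes outside the lists, picked after their values were seen, included bright mRNAs of secreted proteins. C3, the central complement component, read 8.08 with DMSO, 7.84 under bilberry, 7.82 under delphinidin and 8.36 under cyanidin, and its other probe -1.63 with DMSO. Gsn, which encodes the actin-severing protein gelsolin, read 7.86, 8.50, 7.84 and 7.99 on the same arrays. Gas6, a ligand of the receptors Axl and Mertk, read 7.49, 7.58, 7.19 and 7.23. Ptn, the growth factor pleiotrophin, differed most between arrays in this group, with 6.13 with DMSO, 4.58 under bilberry, 6.09 under delphinidin and 5.44 under cyanidin. Cst3, which encodes the protease inhibitor cystatin C, was at 6.20 with DMSO, 6.71 under bilberry, 6.35 under delphinidin and 6.14 under cyanidin. Igfbp7, Mfge8, Ecm1 and Lgals1 read 6.82, 6.18, 6.62 and 7.42 on the DMSO array.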
